A study of Mus musculus with 8 samples.

Results

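The genes described are 9 genes of retinoid uptake and signalling, *Stra6*, *Rbp4*, *Crabp2*, *Aldh1a1*, *Aldh1a2*, *Cyp26b1*, *Rara*, *Rarb* and *Rarg*, of the 49315 genes counted in mouse brain endothelial cells (ECs). They were found by symbol, each matched 1 gene identifier, and none of them shares exon bases with another gene. The set was chosen with results of the comparison below already known, so the values of these 9 genes are a description and carry no test. Mutant pups were *R26 GT-Map2k1-GFP/+;Tg-Cdh5CreER+/-* (n = 4), in which tamoxifen given at day 1 of life switches on MAP2K1 with the p.K57N substitution, an activating change in a kinase of the RAS/MAPK pathway, from the *Rosa26* locus. Control pups were labelled wild type (n = 4), were selected from the litters of the mutants, and were analysed at the same age, day 9. Tamoxifen was injected in whole litters, controls included, and both parental lines had been backcrossed to C57BL/6J. The Cre recombinase is driven by the endothelial *Cdh5* promoter, and only a minority of the ECs extracted from mutant brains carried the recombined allele, so each mutant library mixes mutant and non-recombined ECs. The ECs of each pup were captured with beads against CD31, an endothelial surface protein, and gave 1 RNA sequencing library. The study asked which transcripts differ in brain ECs in which mutant MAP2K1 produces arteriovenous malformations.

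Retinol travels in plasma bound to retinol-binding protein 4 (RBP4), itself bound to transthyretin, and STRA6 is the membrane receptor that takes retinol from RBP4 into the cell. Inside the cell retinol is oxidised to retinal by alcohol and retinol dehydrogenases, and retinal to retinoic acid by the ALDH1A enzymes. CRABP2 carries retinoic acid to the nucleus, where it binds the retinoic acid receptors RARA, RARB and RARG, which act as dimers with the RXR receptors, and CYP26 enzymes break it down. *Stra6* is known for expression at blood-tissue barriers including brain vessels, and *Rarb* is a classical target of its own receptor family through a direct repeat in its promoter.

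That repeat is shown because it is the sequence through which the receptors are known to act on one of the genes described. Direct repeats of the receptor half-site (the hexamer AGGTCA, also allowing G as the leading base and T in place of the second G of the GG pair) separated by 5, 2 or 1 bases, named DR5, DR2 and DR1, were searched on both strands in the RefSeq promoter windows of GRCm38.p6, which run from 250 bases before to 50 bases after each transcript start. Windows were given for 8 of the 9 genes (17 windows in all, none for *Crabp2*), and 1 held a match. The *Rarb* window, on the minus strand of chromosome 14, held a DR5 that begins 53 bases before the start, at chr14:16575513-16575529. A DR5 was found in 0.0974% of 32851 windows, a DR2 in 0.268% and a DR1 in 0.222%. The 250 bases before the *Rarb* start (chr14:16575477-16575726, minus strand) are printed 5′ to 3′ with both half-sites in capitals:

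Rarb promoter: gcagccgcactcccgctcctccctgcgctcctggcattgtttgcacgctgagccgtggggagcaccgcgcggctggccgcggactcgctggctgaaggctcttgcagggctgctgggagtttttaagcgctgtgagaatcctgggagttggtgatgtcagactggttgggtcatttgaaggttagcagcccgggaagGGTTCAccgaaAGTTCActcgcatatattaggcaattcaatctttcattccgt

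Among 45 matched genes of a second list of 62 retinoid genes, described further below, *Cyp26a1*, which encodes another enzyme of retinoic acid breakdown, held a DR5 on the opposite strand (chr19:37697776-37697792) and *Bco1*, a carotenoid-cleaving enzyme, held a DR1 (chr8:117095809-117095821). They read as follows on the plus strand, half-sites in capitals, and are shown for comparison with the *Rarb* repeat:

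Cyp26a1 repeat: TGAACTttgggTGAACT

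Bco1 repeat: TGACCTtTGACCT

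A match describes letters only, and binding of a receptor was not measured. Matches were not recorded for *Ttr* and *Cdx1*, 2 genes of the second list, so whether their windows hold a repeat is not given here.

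The libraries held between 24833373 and 34196955 counts on genes. *Map2k1*, the gene the transgene adds to, had 12660 to 18687 normalized counts in the mutants and 1502 to 1758 in wild type, as the labels say. Normalized counts are counts scaled by TMM to a library of mean size, and libraries of one group differed from each other by more than sampling noise. Of 16887 genes that passed the filter on low counts, 14.0% met the study's limits (Benjamini-Hochberg adjusted p under 0.05 by edgeR's quasi-likelihood test and a log2 fold change beyond 1 in either direction), 5.90% as higher and 8.05% as lower in mutants. The groups did not overlap for 42.5% of genes.

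Among the 9 genes, *Stra6*, *Rarb* and *Rarg* were lower in the mutant libraries, which mix mutant and non-recombined ECs. The synthesis and breakdown enzymes, *Crabp2* and *Rara* differed by less. *Rbp4* did not pass the filter. Of the 8 genes that passed, 3 met the limits, all as lower in mutants (37.5%). Over all genes 14.0% met them, 8.05% as lower. The groups did not overlap for 4 of the 8, against 42.5% of all genes. The 9 genes were chosen with these results known, so the counts are a description. The median log2 fold change of the 8 was 0.01, and that of all genes tested was -0.03. In RNA from mixed cells, fewer cells of a type and less RNA per cell cannot be told apart.

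**Figure D1:**
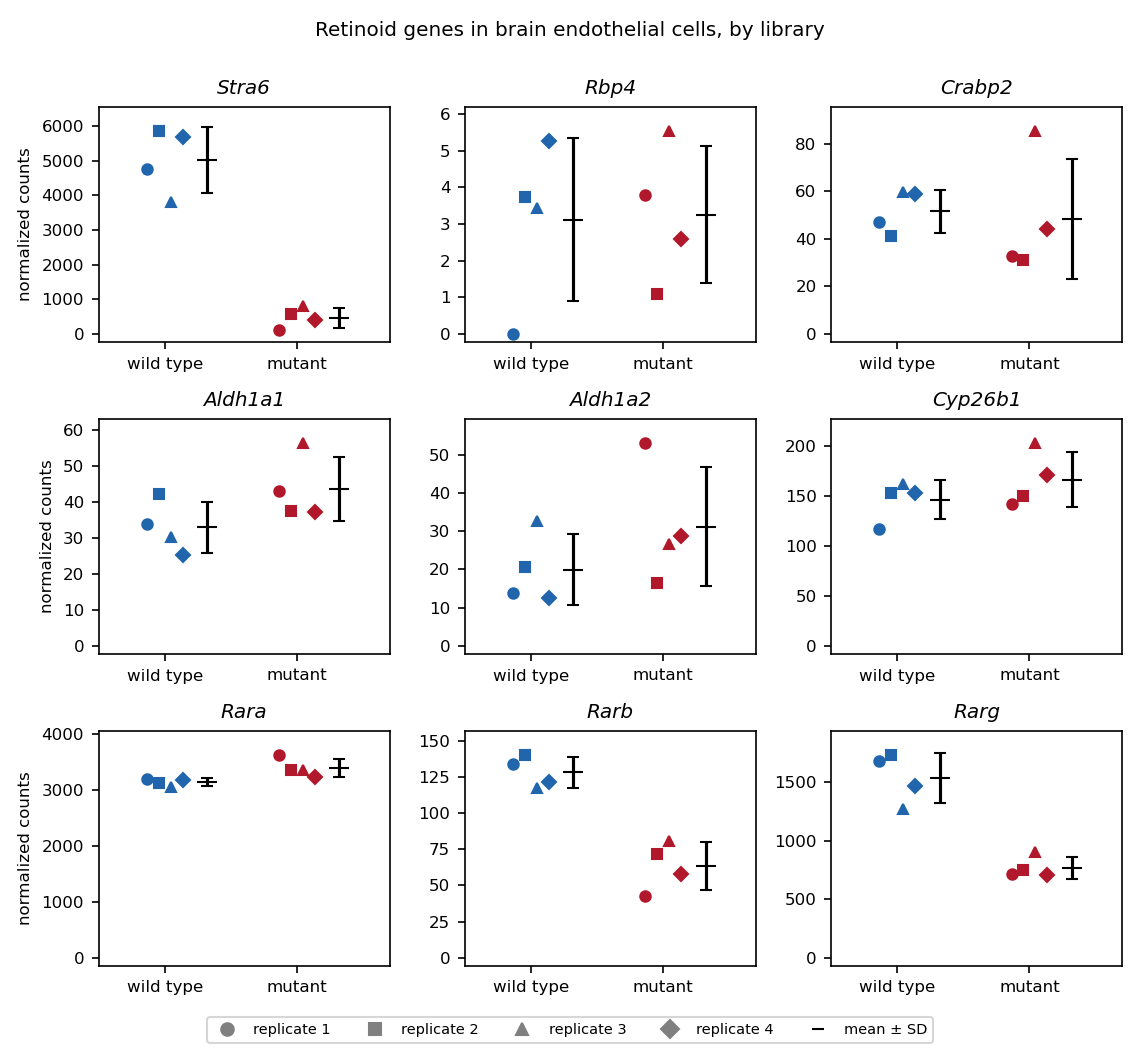
Normalized counts (y axis, linear) of the 9 retinoid genes in each library, wild type in blue and mutant in red, with the symbol's shape giving the replicate number and the bar the mean ± SD (n = 4). The 4 mutant libraries lie below the 4 wild-type libraries for *Stra6*, *Rarb* and *Rarg* and above them, by a small margin, for *Rara*, and the groups overlap in the other panels.

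*Stra6*, on chromosome 9 from 58063788 to 58153996 (GRCm38), encodes the retinol receptor. It had 4754, 5844, 3806 and 5671 normalized counts in wild-type libraries 1 to 4 and 107, 568, 798 and 401 in mutant libraries 1 to 4. Every mutant library was below every wild-type library, and mutant 1 stood lowest. The mutant libraries held 2.14%, 11.3%, 15.9% and 7.99% of the wild-type mean. The fitted log2 fold change was -3.42 (SE 0.44, 95% interval -4.39 to -2.44), from a mean of 5019 ± 940 to one of 469 ± 291 (SD, n = 4 each). This was the largest difference among the 8 genes. With 85 to 722 counts in the mutants, counting error is small beside the spread between pups.

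*Rbp4*, which encodes the plasma carrier of retinol and is made mainly in liver, was at the limit of detection in these ECs. It had 0, 4, 4 and 5 counts in wild-type libraries and 3, 1, 5 and 3 in mutant libraries, and no difference was detectable at this depth. *Crabp2*, the carrier of retinoic acid to the nucleus, had 46.9, 41.3, 59.5 and 58.9 normalized counts in wild type and 32.8, 30.9, 85.1 and 44.3 in mutants. The groups overlapped, mutant 3 was the highest of the 8 libraries, and the log2 fold change was -0.09 (SE 0.33, 95% interval -0.82 to 0.63). That interval does not exclude a difference of either sign.

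The enzymes that make retinoic acid were low in both groups. *Aldh1a1* had 34.0, 42.2, 30.2 and 25.2 normalized counts in wild type and 42.9, 37.5, 56.4 and 37.3 in mutants, with overlapping groups and a log2 fold change of 0.40 (SE 0.25, 95% interval -0.14 to 0.94). *Aldh1a2*, the main enzyme of the embryo and the meninges, had 13.8, 20.6, 32.8 and 12.6 in wild type and 53.0, 16.5, 26.5 and 28.7 in mutants, with overlapping groups and a log2 fold change of 0.62 (SE 0.41, 95% interval -0.30 to 1.54). The highest *Aldh1a2* value was that of mutant 1, the library lowest in *Stra6*. *Cyp26b1*, which breaks retinoic acid down, had 118, 154, 162 and 154 normalized counts in wild type and 143, 150, 203 and 171 in mutants, with a log2 fold change of 0.19 (SE 0.16, 95% interval -0.18 to 0.55). Its groups overlapped as well, so none of these 3 enzymes set mutants apart from wild type.

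The receptors did not move together. *Rara* had 3199, 3122, 3049 and 3178 normalized counts in wild type and 3627, 3351, 3365 and 3236 in mutants. The groups did not overlap, but the gap between them was narrow and the log2 fold change was 0.11 (SE 0.06, 95% interval -0.02 to 0.25). Scaling by library totals without TMM gave 0.06.

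*Rarg* had 1682, 1733, 1267 and 1467 normalized counts in wild type and 712, 750, 900 and 703 in mutants. All mutant libraries were lower than all wild-type libraries, at 45.7% to 58.5% of the wild-type mean, with a log2 fold change of -1.004 (SE 0.12, 95% interval -1.27 to -0.74). *Rarb*, whose promoter holds the DR5 printed above, had 134, 141, 117 and 122 normalized counts in wild type and 42.9, 71.7, 80.7 and 58.2 in mutants. Here too the groups did not overlap, the mutants ranging from 33.4% (mutant 1) to 62.8% (mutant 3) of the wild-type mean, and the log2 fold change was -1.02 (SE 0.20, 95% interval -1.47 to -0.57). Both receptors lie at the fold limit of 1. Only *Stra6* met the limits when DESeq2 or its size factors were used, or when mutant 1, mutant 4, wild type 1 or wild type 2 was left out, while the log2 fold changes of *Rarb* and *Rarg* stayed between -1.18 and -0.85 and between -1.16 and -0.94 over 16 alternatives.

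Levels per length (RPKM, counts per length and library size, from the TMM-scaled counts and the gene length in the files) set the genes side by side. In wild-type ECs *Stra6* was at 29.1 ± 5.44 (SD, n = 4), *Rara* at 24.3 ± 0.520 and *Rarg* at 12.6 ± 1.76. The remaining genes were lower, *Rarb* at 1.43 ± 0.120, *Crabp2* at 1.32 ± 0.231, *Cyp26b1* at 0.926 ± 0.125, *Aldh1a1* at 0.541 ± 0.118, *Aldh1a2* at 0.298 ± 0.138 and *Rbp4* at 0.0811 ± 0.0579. Of neighbours in this order, *Stra6* and *Rara*, *Rarb* and *Crabp2*, and *Aldh1a1* and *Aldh1a2* overlapped between libraries, and the others did not. In mutant libraries *Rara* came first at 26.3 ± 1.28 (SD, n = 4), followed by *Rarg* at 6.30 ± 0.750 and *Stra6* at 2.72 ± 1.68. From *Stra6* down to *Aldh1a2* (0.465 ± 0.231) each gene overlapped its neighbour, with *Rarb* at 0.706 ± 0.183 next to *Aldh1a1* at 0.716 ± 0.147. *Stra6*, which overlapped *Rara* in wild type, was below *Rarg* in every mutant library (0.622 to 4.62 against 5.78 to 7.40).

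As a share of the summed level per length of the 3 receptor genes, *Rara* made up 63.4% ± 2.87 in wild type and 79.0% ± 2.38 in mutants (SD, n = 4 each). The share of *Rarg* was 32.8% ± 2.77 and 18.9% ± 1.90, and that of *Rarb* was 3.73% ± 0.142 and 2.12% ± 0.541. The sum itself was 38.3 ± 2.23 in wild type and 33.3 ± 1.39 in mutants. *Rara* was the most abundant receptor transcript in each of the 8 libraries.

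**Figure D2:**
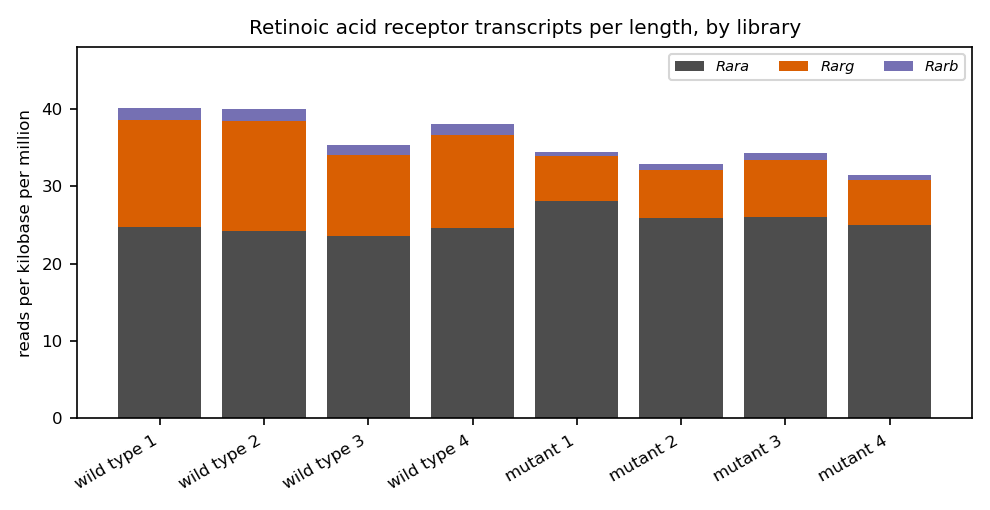
Stacked levels per length (y axis, RPKM) of *Rara*, *Rarg* and *Rarb* in each of the 8 libraries. The *Rarg* segment is between 10.4 and 14.2 in wild-type libraries and between 5.78 and 7.40 in mutant libraries, while the *Rara* segment lies between 23.6 and 28.1 throughout.

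The library labels carry a numeric prefix whose meaning they do not give, and the mutant and wild-type libraries share the same 3 prefixes (1 for replicates 1 and 2 of both groups, 1 for replicates 3 and 1 for replicates 4). Within the prefixes the log2 ratio of mutant to wild type for *Stra6* was -3.97 for replicates 1 and 2, -2.25 for replicates 3 and -3.82 for replicates 4. For *Rarb* it was -1.26, -0.54 and -1.07 in that order, and for *Rarg* it was -1.22, -0.49 and -1.06. Each of the 3 genes was lower in mutants under every prefix, with the smallest difference between mutant 3 and wild type 3. Among mutant libraries the order from lowest to highest was 1, 4, 2, 3 for both *Stra6* and *Rarb*. *Rarg* did not share it, with mutant 4 lowest (703 normalized counts) and mutant 1 next (712). *Map2k1* was highest in mutant 1 (18687 normalized counts), followed by mutant 4 (14306), and mutants 2 and 3 had 12660 and 12675. These are 4 libraries, and the relation was not tested.

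The second list holds 62 other genes of retinoid uptake, storage, oxidation, breakdown and response. Of these, 42 passed the filter, 3 rose and 2 fell past both limits (11.9% of those tested, against 14.0% of all genes), and the median log2 fold change was -0.14. By adjusted p alone 7 were higher and 15 lower, where 44.4% of all genes passed. The share that met the limits was close to that of all genes, so the list as a whole did not stand out by its count. The counts by role below rest on 4 to 10 tested genes each. Of all genes 5.90% rose and 8.05% fell past the limits. The values below are from the quasi-likelihood test of edgeR, with p adjusted by Benjamini-Hochberg over all 16887 genes, and counting with or without strand was not stated in the sources used here, so genes with antisense neighbours are uncertain.

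For uptake and carriage, 1 of 7 tested genes rose and none fell past the limits. *Rbp7*, an intracellular retinol-binding protein, had 12.9, 16.9, 16.4 and 24.2 normalized counts in wild type and 141, 99.3, 86.2 and 106 in mutants. Its groups did not overlap and the log2 fold change was 2.62 (SE 0.25, edgeR adjusted p = 3.54e-05). *Scarb1*, a lipoprotein receptor that also takes up carotenoids, had a log2 fold change of -0.68 (SE 0.11, edgeR adjusted p = 0.000766), short of the fold limit. *Ttr*, transthyretin, the partner of RBP4 and the most abundant secreted product of choroid plexus, was very uneven, at 5318, 6168, 17289 and 2986 normalized counts in wild type and 1454, 1883, 6133 and 2263 in mutants. Its groups overlapped, both libraries numbered 3 stood highest, and the difference missed the threshold (log2 fold change -1.44, SE 0.57, edgeR adjusted p = 0.0611).

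The library labels carry a prefix, described above, that the groups share, and *Ttr* was lower in mutants under each (log2 ratio -1.78, -1.50 and -0.40). With the prefix as a block the difference met the limits (log2 fold change -1.37, edgeR adjusted p = 0.000886), as it did without both libraries numbered 3 (-1.36, edgeR adjusted p = 0.00337).

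Of the 8 choroid plexus markers, 3 were called lower by edgeR with groups that overlapped, *Folr1* (log2 fold change -1.61), *Kcne2* (-2.11) and *Kcnj13* (-2.06). *Otx2* (-1.54), *Kl* (-1.18) and *Slc4a5* (-1.04) were lower without being called. Like *Ttr*, each of these genes was highest in wild type 3 among wild-type libraries and in mutant 3 among mutants. *Clic6* was called higher (2.98) and *Aqp1* hardly differed (-0.02). The median of the 8 was -1.36. The 7 markers other than *Clic6* summed to 13.9 to 24.0 CPM in mutants and 18.8 to 45.5 in wild type. These sums overlapped (exact permutation p = 0.257). *Aqp1* weighed most on them, with a mean of 404 normalized counts over the 8 libraries, where *Kl* was next at 75.7. The test of the sum therefore says little about the less abundant markers. Under the prefix of replicates 4, where *Ttr* was lower, *Kl* (log2 ratio 0.19), *Slc4a5* (1.07) and *Clic6* (3.43) were higher in mutants and *Folr1* (0.007) hardly differed. *Kcne2* (-1.69), *Kcnj13* (-0.86), *Aqp1* (-0.30) and *Otx2* (-0.28) were lower there. Under the other prefixes every marker but *Clic6* and *Aqp1* was lower in mutants. None of the 8 was at 0 in all libraries. The part of choroid plexus cells in the *Ttr* and *Stra6* values was not tested. Of the 5 tested genes of storage and carotenoid cleavage, none met the limits. *Retsat*, which saturates retinol, had a log2 fold change of 0.17 (SE 0.11, edgeR adjusted p = 0.246).

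Of 10 tested oxidoreductases, 1 fell. *Adh1*, an alcohol dehydrogenase that oxidises retinol, had 811, 736, 668 and 587 normalized counts in wild type and 144, 188, 324 and 159 in mutants, with groups that did not overlap. Its log2 fold change was -1.78 (SE 0.23, edgeR adjusted p = 0.00020), and its mutant libraries followed the order of *Stra6*, with mutant 1 lowest and mutant 3 highest. *Rdh10*, the main retinol dehydrogenase of the embryo, was at 1362 ± 222 in mutants and 1320 ± 204 in wild type (SD, n = 4; log2 fold change 0.05, SE 0.14, edgeR adjusted p = 0.808), and the sign turned with the scaling. *Adh5* had a log2 fold change of -0.11 (SE 0.08, edgeR adjusted p = 0.262). *Dhrs3*, which reduces retinal back to retinol and was singled out after its values were seen, was at 539 ± 67.0 against 831 ± 85.5 (SD, n = 4), with a log2 fold change of -0.62 (SE 0.11, edgeR adjusted p = 0.00138), inside the fold limit.

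Of the 4 tested genes of retinoic acid synthesis and breakdown outside the 9, 2 rose past the limits, where 5.90% of all genes did. *Aldh1a3*, a further retinal dehydrogenase, had 46.9, 38.4, 50.9 and 52.6 normalized counts in wild type and 265, 188, 165 and 350 in mutants. No mutant library overlapped wild type, and the log2 fold change was 2.36 (SE 0.25, edgeR adjusted p = 6.09e-05). Per length it was at 1.77 ± 0.614 in mutants and 0.345 ± 0.0462 in wild type (SD, n = 4), above *Aldh1a1* and *Aldh1a2* in every mutant library. *Cyp1b1*, a cytochrome P450 that oxidises retinol among other substrates, had 56.0, 94.7, 109 and 135 normalized counts in wild type and 293, 294, 317 and 609 in mutants, with a log2 fold change of 1.95 (SE 0.31, edgeR adjusted p = 0.00061). *Cyp26a1*, whose promoter holds a DR5, was at 15.9 ± 7.36 in mutants and 17.4 ± 6.12 in wild type (SD, n = 4), with overlapping groups and an edgeR adjusted p of 0.845.

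None of the 10 tested partner receptors and coregulators met the limits, and 1 was higher and 6 were lower by adjusted p alone, where 21.5% of all genes were higher and 22.9% lower. *Ncoa1*, a coactivator of nuclear receptors, had 2758, 2798, 2767 and 3074 normalized counts in wild type and 1334, 1668, 1719 and 1108 in mutants, with a log2 fold change of -0.97 (SE 0.13, edgeR adjusted p = 0.000207), at the edge of the fold limit. *Rxra*, the partner receptor, had a log2 fold change of -0.35 (SE 0.09, edgeR adjusted p = 0.00935), and *Rxrb* one of -0.17 (SE 0.10, edgeR adjusted p = 0.212). The other 4 that passed by adjusted p as lower were *Ppard* (-0.27), *Ncor1* (-0.19), *Ncoa2* (-0.31) and *Zfp423* (-0.39), and the corepressor *Nrip1* was higher (0.47, SE 0.10, edgeR adjusted p = 0.00371). *Ncoa3* (-0.09) did not pass. The pass of *Ncor1* was lost in 10 of 16 alternatives (edgeR adjusted p 0.061 to 0.151), among them every omission of 1 library but that of mutant 2, and that of *Zfp423* in 6 (0.0519 to 0.0642), among them the omission of mutant 1, 3 or 4 or wild type 1 or 2.

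Of 6 tested genes known to respond to retinoic acid, 1 fell. *Meis2*, a homeobox factor, had 39.5, 38.4, 75.9 and 68.4 normalized counts in wild type and 20.2, 11.03, 22.1 and 39.9 in mutants. Mutant 4 lay within the wild-type range, the log2 fold change was -1.23 (SE 0.39, edgeR adjusted p = 0.0252), and the call was lost without mutant 1, 2 or 3 or wild type 3 or 4 (edgeR adjusted p between 0.055 and 0.0652). *Tgm2* (0.29, edgeR adjusted p = 0.0438) and *Rai14* (0.39, edgeR adjusted p = 0.00805) were higher and *Hic1* (-0.77, edgeR adjusted p = 0.0124) lower by adjusted p alone, so these genes did not share a direction. The pass of *Tgm2* was lost in 7 of 16 alternatives (edgeR adjusted p 0.0573 to 0.116), with library totals, without mutant 1 or 2 or wild type 2, 3 or 4, and without both libraries numbered 3.

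**Figure D3:**
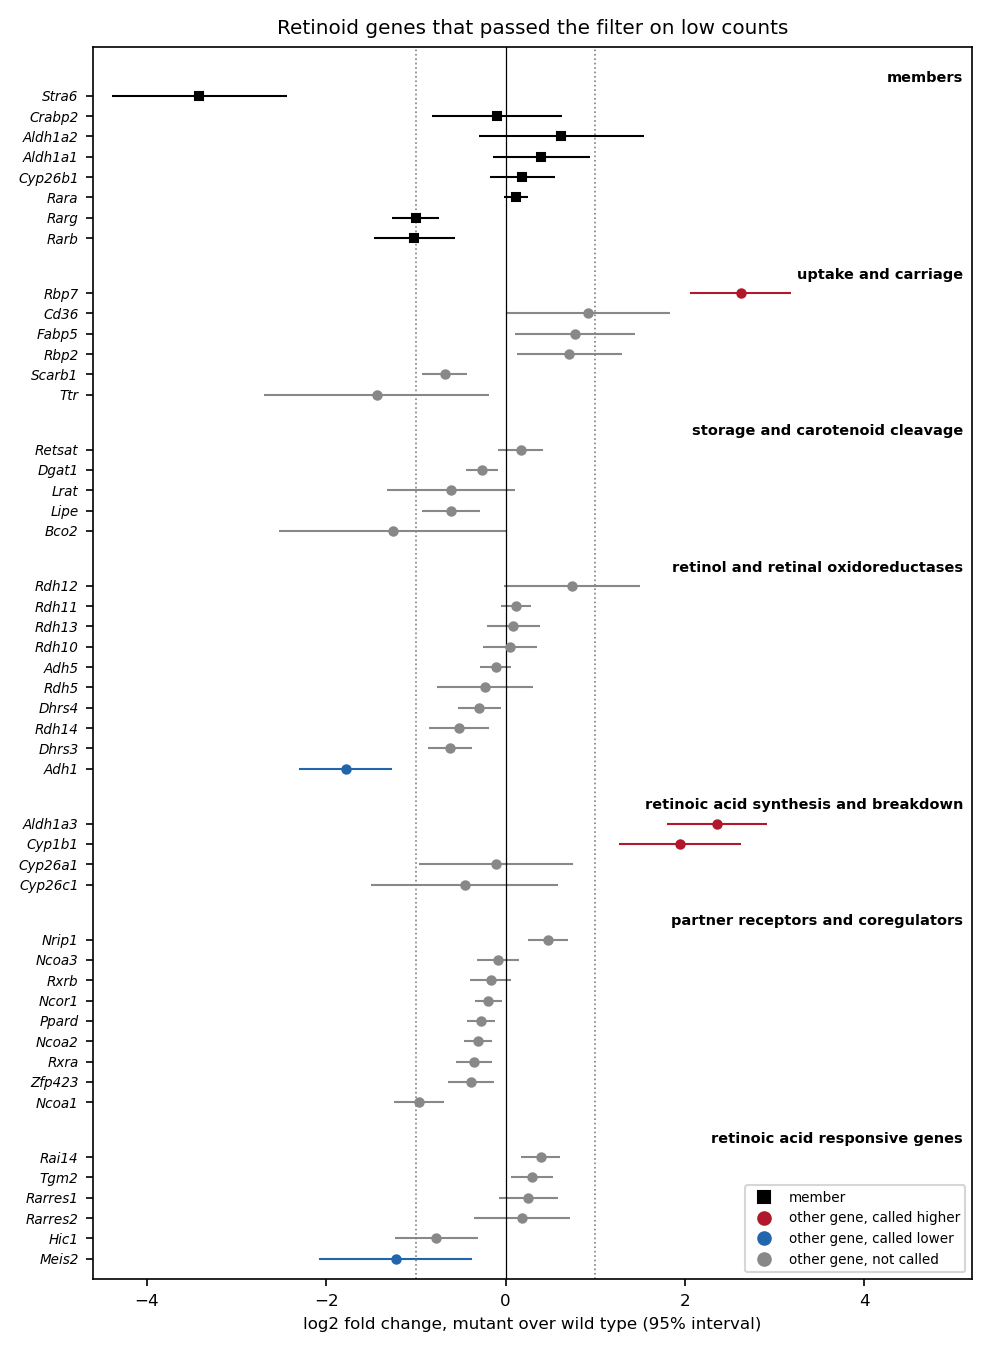
Fitted log2 fold change of mutant over wild type (x axis, bars are 95% intervals) for the retinoid genes reported here that passed the filter, grouped by role, with dotted lines at the fold limit. *Stra6* lies furthest from 0 at -3.42, *Rarb* and *Rarg* sit on the lower limit, and *Rbp7*, *Aldh1a3* and *Cyp1b1* lie above the upper one.

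The 5 genes whose log2 level over the 8 libraries followed *Stra6* most closely, of 11395 genes whose mean was 100 normalized counts or more, were *Mfap2*, *Clic5*, *Mgll*, *Nkd2* and *F5*. Their Pearson r with *Stra6* was 0.996, 0.9928, 0.9926, 0.9923 and 0.9921, over libraries that form 2 groups and share depth and preparation. *Mfap2*, a microfibril protein, was at 434 ± 128 normalized counts in mutants and 1059 ± 48.6 in wild type (SD, n = 4). *Clic5*, an intracellular chloride channel protein, was at 678 ± 249.4 and 2446 ± 413, and *Mgll*, which hydrolyses monoacylglycerols, at 418 ± 131 and 1736 ± 165. *Nkd2*, an inhibitor of Wnt signalling, was at 204 ± 53.0 and 413 ± 28.2, and *F5*, coagulation factor V, at 139 to 358 and 936 to 1192. All 5 were lowest in mutant 1 and highest, among mutants, in mutant 3, as *Stra6* was. They were chosen by their correlation with *Stra6* over these same libraries, so the shared order follows from the choice. Their folds were smaller, with log2 fold changes from -2.05 (*Mgll*) to -1.01 (*Nkd2*).

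**Figure D4:**
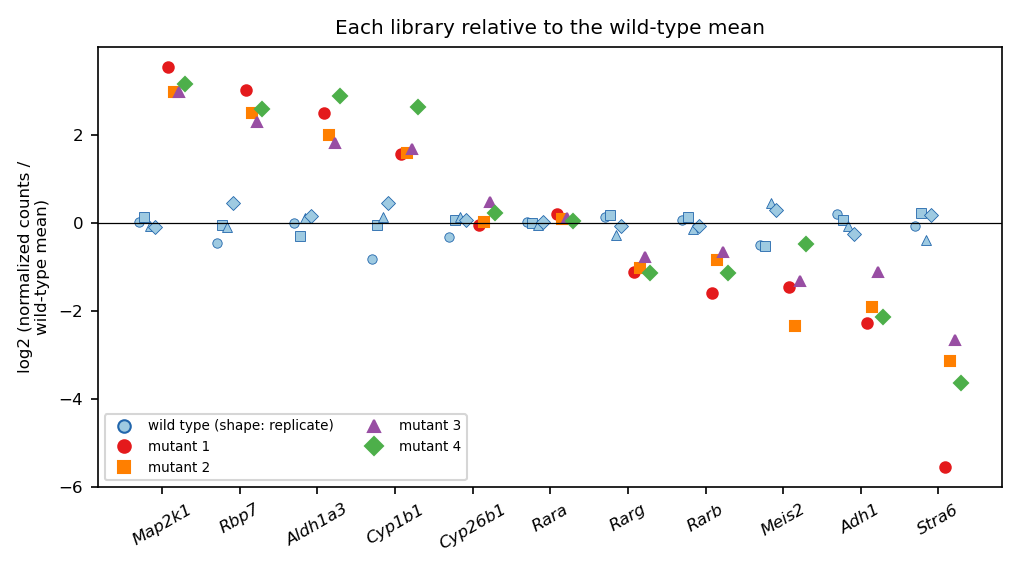
Log2 ratio of each library's normalized counts to the wild-type mean (y axis) for *Map2k1*, 5 of the 9 genes, and the retinoid genes that met the limits. Mutant 1 is the lowest library for *Stra6* (-5.55), *Rarb* (-1.58) and *Adh1* (-2.28) and the highest for *Map2k1* (3.54) and *Rbp7* (3.01). Mutant 4 is the lowest for *Rarg* (-1.13) and the highest for *Aldh1a3* (2.89) and *Cyp1b1* (2.63), and mutant 2 is the lowest for *Meis2* (-2.33).

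The cells were checked against markers of ECs and of other brain cells. The 10 endothelial markers summed to 12248 to 14840 CPM (counts scaled to library size) in mutants and 11524 to 13968 in wild type, with a ratio of the group means of 1.01 (exact permutation test, two-sided, p = 0.914). The sum joins genes that went both ways. By edgeR's adjusted p 3 of the 10 were higher, *Cdh5*, whose promoter drives the Cre (log2 fold change 1.11, called), *Emcn* (0.82) and *Pecam1* (0.53). By the same measure 3 were lower, *Kdr* (-0.59), *Tek* (-0.44) and *Cldn5* (-0.47). Of all genes 21.5% were higher and 22.9% lower by adjusted p. The groups did not overlap for 6 of the 10, against 42.5% of all genes. The 8 genes of the brain endothelial barrier summed to 4243 to 7157 in mutants and 11903 to 14053 in wild type, a ratio of 0.430 (exact permutation p = 0.0286, the smallest that 4 against 4 allows, and 0.0629 after Benjamini-Hochberg adjustment over 11 lists). Of these, 5 were called lower by edgeR (against 8.05% of all genes), among them *Tfrc* (log2 fold change -2.75) and *Mfsd2a* (-2.34). The other 3 were not called. *Abcb1a* (-0.65) and *Ocln* (-0.62) were lower by adjusted p alone, and *Slc2a1*, the most abundant of the 8, hardly differed (-0.14, edgeR adjusted p = 0.329). *Stra6* was thus lower in the libraries in which the called barrier genes were lower too.

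Markers of other cell types also differed between the groups. Oligodendrocyte lineage markers summed to 25.9 to 55.5 CPM in mutants and 88.0 to 257 in wild type, with all 6 called lower, and red blood cell markers to 86.7 to 285 in mutants and 530 to 920 in wild type, with all 5 called lower. Neuron markers (7) summed to 20.6 to 28.4 in mutants and 29.99 to 55.5 in wild type, a ratio of 0.593. *Rbfox3*, 21.1% of that sum, went the other way (log2 fold change 1.185, edgeR adjusted p = 0.0514), and without it the ratio was 0.400. The exact permutation p was 0.0286 for each of these 3 lists, and 0.0629 after adjustment. Astrocyte markers (7) summed to 625 to 749 in mutants and 372 to 442 in wild type (exact permutation p = 0.0286, adjusted 0.0629), but *Gja1* made up 94.1% of that sum, and without it the ratio was 0.764 (exact permutation p = 0.457). Meningeal fibroblast markers (10), relevant to *Aldh1a2*, summed to 1070 to 1389 in mutants and 949 to 1252 in wild type (exact permutation p = 0.171). *Col1a1*, *Col1a2* and *Col3a1* weighed most on that sum, at means of 14849, 12009 and 6024 normalized counts, with *Pdgfra* next at 337. By edgeR's adjusted p *Lum* (log2 fold change 0.67) and *Col1a1* (0.39) were higher. *Pdgfra* (-1.03, called), *Islr* (-0.80) and *Col3a1* (-0.515) were lower by the same measure. Choroid plexus markers with *Clic6* summed to 54.4 to 111 in mutants and 23.3 to 57.1 in wild type (exact permutation p = 0.0571). Pericyte (7 markers), smooth muscle (5) and microglia and macrophage (7) sums overlapped, with exact permutation p of 0.171, 0.857 and 0.914. Within the pericyte list *Abcc9* was called higher (log2 fold change 1.78, edgeR adjusted p = 0.000236). *Kcnj8* (0.81) and the smooth muscle marker *Tagln* (0.73) were higher by edgeR's adjusted p alone (0.0242 and 0.0367). The other markers of these lists did not pass. No marker was at 0 in all libraries, and the part of other cells in the values of the retinoid genes was not tested.

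**Figure D5:**
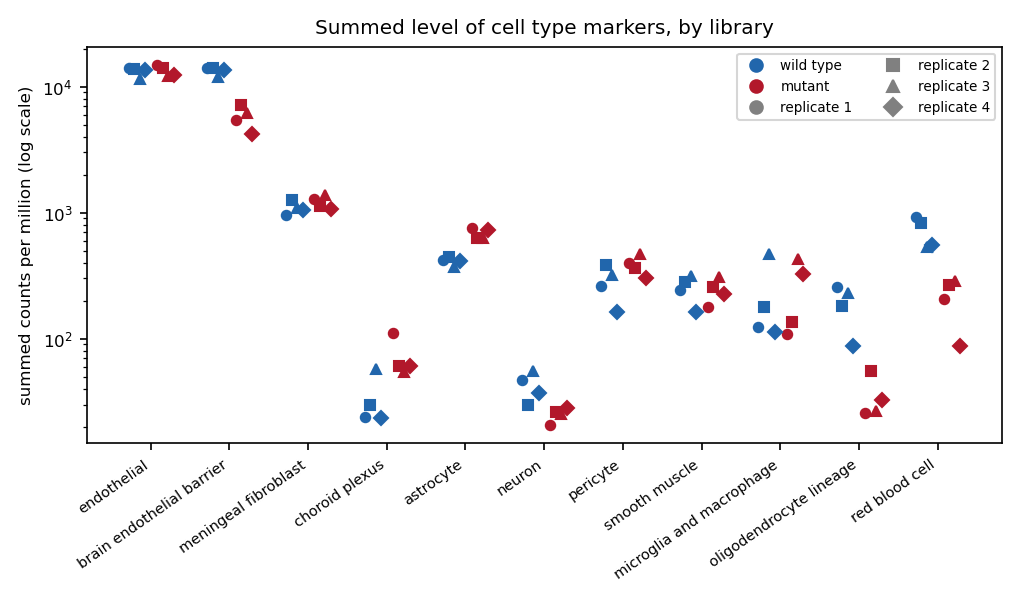
Summed CPM (y axis, log scale) of the 11 marker lists in each library, wild type in blue and mutant in red. The endothelial sums overlap between groups, while the barrier, oligodendrocyte lineage, red blood cell and neuron sums of the mutants lie below all wild-type sums.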

How the data were processed

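ECs were isolated from the brains of 4 mutant and 4 wild-type pups and 1 library per pup was sequenced after enrichment of polyadenylated RNA. The authors trimmed the reads, aligned them to GRCm38 with STAR and deposited whole-number counts per gene for each library, without normalization. The counting program, annotation release and use of strand are not given in the sources used here. A second deposited set, normalized by the authors with DESeq2, was not used. Symbols were matched for 48970 of 49315 identifiers. Genes, lists and tests were chosen with earlier results of these data known. One title in the study's supplement calls the controls Cre carriers, whereas the labels and the study's text call them wild type.

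Counts were fitted on all genes in R 4.3.3 with edgeR 4.0.16 (TMM, filterByExpr with a minimum count of 10, glmQLFit, glmQLFTest, no covariate, Benjamini-Hochberg adjustment over 16887 genes). The limits were an adjusted p below 0.05 with a log2 fold change beyond 1 in either direction, as in the study's methods. Summed marker levels were compared by exact two-sided permutation tests. Named genes are the 9 genes, the genes of the 62-gene list that met the limits or averaged 1000 normalized counts or more, and the 5 genes of highest Pearson correlation with *Stra6* among those with a mean of at least 100. Other genes are said to be chosen after their values were seen. The values of 2 genes of the list are not reported here, but its counts and median include them. The code was tested on simulated counts. Libraries held 24833373 to 34196955 counts, so precision is limited by the spread between pups, except for genes of a few counts, such as *Rbp4*. Chi-square per degree of freedom between libraries of one group was 6.70 to 37.1, so all 8 were kept as separate replicates. Alternatives were DESeq2 1.42.0, other scalings and filters, no fold limit, the replicate number or label prefix as a block, and each library left out.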

Additional observations from a re-analysis of the deposited data

Results flagged for a closer look

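Of 84 groups of 4 libraries checked, 3 had 1 library far from the others by Dixon's criterion, and chance alone passes about 1 in 20 groups. *Cyp1b1* was at 609 normalized counts in mutant 4, where the other mutants had 293 to 317. *Ncoa1* was at 3074 normalized counts in wild type 4, where the other wild-type libraries had 2758 to 2798. The choroid plexus markers summed to 111 CPM in mutant 1, where the other mutants had 54.4 to 61.1, and *Clic6* made up 57.0% of that list's sum over all libraries.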

How the results depend on the processing

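Of the 9 genes, 3 met the limits in the reported fit. The count was 1, *Stra6*, with DESeq2 and 1 with the RLE normalization, and 1 to 3 when single libraries were left out (1 without mutant 1, mutant 4, wild type 1 or wild type 2). *Rarg* also missed the fold limit with no filter or a CPM filter on low counts, without mutant 2, and when the fit was blocked on the prefix. Among the other retinoid genes, dropping the fold limit gave 7 higher and 15 lower, and 7504 of all genes. The label prefix as a block gave 4 lower, and leaving out single libraries gave 3 to 5 higher (5 without wild type 3) and 1 to 3 lower (1 without mutant 1 or wild type 3). *Rbp7*, *Aldh1a3*, *Cyp1b1* and *Adh1* met the limits in all 16 alternatives that kept the fold limit. *Rdh10* turned to -0.008 on the log2 scale with library totals, and it ranged from -0.037 to 0.13 without single libraries. *Ncoa1* passed the fold limit with library totals and without mutant 2 or mutant 3. The endothelial marker ratio was 0.974 with library totals and 0.971 to 1.04 without single libraries, that of smooth muscle 0.867 to 1.05, and that of microglia 0.857 to 1.80. *Ttr* met the limits with no filter on low counts, with the prefix block and without mutant 3 or wild type 4. The ratios of the neuron, oligodendrocyte and choroid plexus sums ranged from 0.540 to 0.661, 0.150 to 0.211 and 1.75 to 2.80. An alternative chosen after seeing the data, without both libraries numbered 3, ended the call of *Meis2* (edgeR adjusted p = 0.115), made those of *Ttr* and *Ncoa1*, and gave 2539 calls over all genes (2356 in the reported fit). The marker sums without *Clic6*, *Gja1* or *Rbfox3* were also chosen after seeing the data. Deviations of same-numbered libraries correlated at 0.203, 0.212, 0.289 and 0.032. Mutants 1 and 2 correlated with the differently numbered wild-type library of their prefix at 0.158 and 0.256. Pairs from different prefixes ranged from -0.357 to 0.371. The numbers were not taken as pairs. The study matched wild-type pups to mutants within litters, and whether a prefix marks a litter is not in the labels. The reported fit had no block, so it does not account for litter. With the replicate number as a block, 3 of the 9 genes met the limits, 3 other retinoid genes were higher and 3 lower (*Ttr* in addition, log2 fold change -1.38, edgeR adjusted p = 0.00156), and 2431 of all genes were called. The cause of these shifts was not tested. Depth limits *Rbp4* and the other genes of a few counts.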

Other observations

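Genes of the 62-gene list that did not pass the filter on low counts held few reads in ECs. *Stra6l*, which encodes a second receptor for RBP4 related to STRA6, had 1, 1, 0 and 3 counts in wild-type libraries 1 to 4 and 2, 2, 5 and 13 in mutant libraries 1 to 4. *Crabp1*, the second cellular carrier of retinoic acid, had 0, 1, 1 and 0 counts in wild type and 1, 1, 4 and 7 in mutants. Neither was tested, and both were named after their values were seen. *Rbp3*, *Rpe65*, *Rdh7*, *Rdh19* and *Cdx1* had 0 counts in all 8 libraries.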
